A study of Homo sapiens with 6 samples.

Results

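The genes described here encode the UFMylation pathway of the endoplasmic reticulum (ER). They are UFM1, UFC1, UFL1, DDRGK1, CDK5RAP3, UFSP2 and ODR4, 7 of the 64299 genes of the deposited count table. Rows were taken by matching Ensembl identifiers, without their version, to the listed gene symbols. The list itself was drawn up with earlier results of these data known. Each of the 7 symbols matched 1 row, and all 7 passed the filter on low counts that left 16243 genes for testing. The enzyme that first activates UFM1, its E1, is not among the 7 and was not analysed here.

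UFMylation attaches the small ubiquitin-like protein UFM1 to lysines of other proteins. UFM1 is made as a precursor, trimmed by a protease to expose a terminal glycine, activated by an E1, passed to the E2 enzyme UFC1 and transferred by a ligase of UFL1, DDRGK1 and CDK5RAP3 that DDRGK1 anchors in the ER membrane. UFSP2, held at the ER by ODR4, removes UFM1 again. The best known target is the ribosomal protein RPL26 on ribosomes docked at the ER translocon, and the pathway is known for clearing ribosomes stalled there and for its part in ER-phagy and ER homeostasis.

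The series asks how the ER handles proteins prone to form amyloid. RNA was sequenced from HEK293T cells, a human embryonic kidney line carrying the SV40 large T antigen (the series text names HEK293), in 6 libraries. In 3 libraries the cells had been transfected, with the lipid-based reagent FuGene 6, with a plasmid labelled ERbeta (also written ER-β), and in 3 with an empty vector, EV_Ctrl. From background knowledge of the study, ER-β is taken as an artificial β-sheet protein sent into the ER and not as estrogen receptor beta; its own level was not analysed here. Whether the 3 libraries of a group stem from independent cultures is not labelled, so a p-value here reflects only how far libraries scatter, part of which may be technical. Transfection was transient, and RNA came from whole wells, so a change in all cells and a change in some of them cannot be told apart.

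Library totals ran from 6833442 counts in EV_Ctrl 1 to 27101644 in EV_Ctrl 2. All 8 genes set as marks of the HEK293 line, among them VIM, KRT8 and NEFL, were at 1 CPM (counts per 1000000 counts of the library) or more in every library. Of 8 genes set for other cell types, 5 stayed under 1 in every library, EPCAM and COL1A1 were above 1 in all, and CD14 ranged from 0.913 to 2.22. Control library EV_Ctrl 2 stood apart from the other controls: its score on the first principal component was -13.89, next to the ERbeta range of -42.13 to -13.92, while EV_Ctrl 1 scored 44.71 and EV_Ctrl 3 scored 41.55. The members' fold changes and the call counts of the gene lists below are therefore given with and without EV_Ctrl 2. EV_Ctrl 2 was singled out by its own values, which lay near ERbeta. Test results without it describe the remaining libraries and are no support for a difference.

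UFM1, the modifier itself, lies on chromosome 13 (38349849 to 38363619, plus strand, GRCh38) and codes for 85 residues in its APPRIS principal transcript of GENCODE 29.

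UFM1 was at 51.8, 45.5 and 62.0 CPM (after TMM normalisation) in ERbeta 1, 2 and 3, and at 25.6, 44.8 and 25.7 CPM in EV_Ctrl 1, 2 and 3. All ERbeta libraries lay above all controls, but EV_Ctrl 2 came within 1 CPM of ERbeta 2. The means were 53.1 ± 8.35 against 32.0 ± 11 CPM (SD, n = 3 each). On the log2 scale ERbeta was higher by 0.72, with a standard error (SE) of 0.24 and a 95% interval of 0.16 to 1.27. The quasi-likelihood test of edgeR, adjusted over all genes by Benjamini-Hochberg, gave an adjusted p of 0.397, so UFM1 did not pass the threshold of 0.05. Without EV_Ctrl 2 the log2 fold change was 1.05 ± 0.16 (SE) and the edgeR adjusted p 0.000831.

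UFC1, the E2 enzyme that receives activated UFM1, lies on chromosome 1 (161152776 to 161158856, plus strand) and codes for 167 residues. It was at 95.4, 104 and 106 CPM in ERbeta 1, 2 and 3 and at 81.3, 99.6 and 73.1 CPM in EV_Ctrl 1, 2 and 3. The groups overlapped through EV_Ctrl 2, which lay above ERbeta 1. The log2 fold change was 0.26 ± 0.13 (SE), with an edgeR adjusted p of 0.431, and 0.40 ± 0.13 without EV_Ctrl 2, with an adjusted p of 0.0541.

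The ligase subunits did not share 1 pattern. UFL1, the ligase subunit that binds the charged E2 enzyme, lies on chromosome 6 (96521595 to 96555276, plus strand) and codes for 794 residues. It was at 77.2, 71.1 and 100 CPM in ERbeta 1, 2 and 3 and at 30.2, 78.2 and 25.2 CPM in EV_Ctrl 1, 2 and 3. EV_Ctrl 2 sat inside the ERbeta range, while the other controls were under 31 CPM. With all 6 libraries the log2 fold change was 0.88 ± 0.40 (SE; edgeR adjusted p 0.401), and without EV_Ctrl 2 it was 1.59 ± 0.18 (adjusted p 0.000119).

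DDRGK1, the membrane-anchored partner of UFL1, lies on chromosome 20 (3190350 to 3204685, minus strand) and codes for 314 residues. Its values were 90.0, 105 and 90.7 CPM in ERbeta and 100, 99.3 and 89.3 CPM in EV_Ctrl, and the groups overlapped fully. The log2 fold change was -0.02 ± 0.11 (SE), with a 95% interval from -0.27 to 0.24 and an edgeR adjusted p of 0.956; without EV_Ctrl 2 it was 0.01. CDK5RAP3, the third subunit, which also binds ATG8 proteins of the autophagosome, lies on chromosome 17 (47967810 to 47981774, plus strand) and codes for 506 residues. It was at 141, 147 and 115 CPM in ERbeta and at 146, 142 and 128 CPM in EV_Ctrl, again with overlap. Its log2 fold change was -0.05 ± 0.12, with an interval from -0.33 to 0.24 and an edgeR adjusted p of 0.874, and -0.02 without EV_Ctrl 2. The signs of DDRGK1 and CDK5RAP3 turned under several other settings, GC correction (below) among them, at values of 0.17 or less.

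The balance of ligase RNAs therefore differed between libraries. Per exon length, as TPM (transcripts per 1000000 transcripts), the ratio of UFL1 to DDRGK1 was 0.346, 0.273 and 0.446 in ERbeta 1, 2 and 3, 0.122 and 0.114 in EV_Ctrl 1 and 3, and 0.318 in EV_Ctrl 2. The ratio of CDK5RAP3 to DDRGK1 stayed between 0.383 and 0.471 in all 6 libraries; the size of such ratios depends on the lengths used, their comparison between libraries does not. EV_Ctrl 2, labelled as empty vector, thus had a ratio of UFL1 to DDRGK1 inside the ERbeta range. The cause was not tested.

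UFSP2, the protease that removes UFM1 from its targets, lies on chromosome 4 (185399540 to 185425985, minus strand) and codes for 469 residues. It was at 27.8, 30.8 and 33.4 CPM in ERbeta 1, 2 and 3 and at 14.7, 28.0 and 13.2 CPM in EV_Ctrl 1, 2 and 3. EV_Ctrl 2 exceeded ERbeta 1 by a small margin, so the groups overlapped. The log2 fold change was 0.69 ± 0.28 (SE; edgeR adjusted p 0.397), and 1.15 ± 0.15 without EV_Ctrl 2 (adjusted p 0.000371). ODR4, the membrane protein that holds UFSP2 at the ER, lies on chromosome 1 (186375838 to 186421378, plus strand) and codes for 454 residues. It was at 48.8, 46.1 and 51.3 CPM in ERbeta and at 20.9, 46.7 and 16.5 CPM in EV_Ctrl, with EV_Ctrl 2 between ERbeta 1 and 2. Its log2 fold change was 0.77 ± 0.35 (edgeR adjusted p 0.401), and 1.40 ± 0.15 without EV_Ctrl 2 (adjusted p 0.000106).

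**Figure D1:**
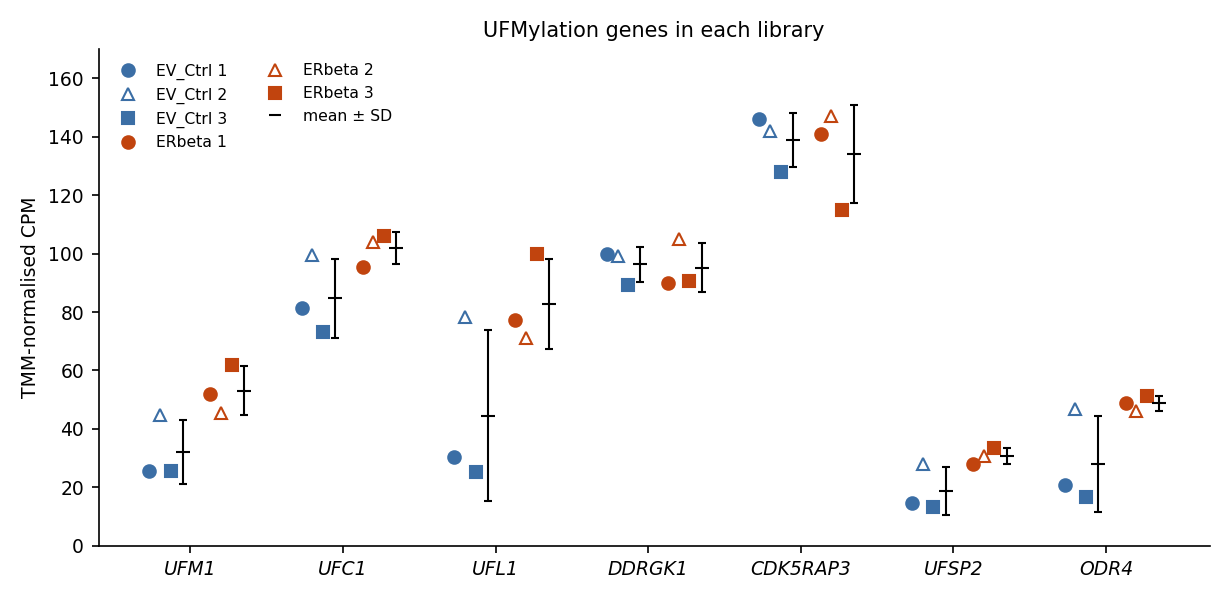
TMM-normalised CPM of the 7 UFMylation genes (y axis, linear from 0) in each library; blue marks are EV_Ctrl, orange marks ERbeta, open triangles replicate 2 of either group, and black bars the mean ± SD of 3 libraries. For UFM1, UFC1, UFL1, UFSP2 and ODR4 the open blue triangle, EV_Ctrl 2, lies near the ERbeta libraries and above EV_Ctrl 1 and 3, while DDRGK1 and CDK5RAP3 show no such gap.

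As a set, 5 of the 7 genes had a positive log2 fold change and 2 a negative one, at a median of 0.69; over all tested genes 48.3% were positive and the median was -0.01. At an unadjusted p under 0.05 there were 2 members, UFM1 (0.0187) and UFSP2 (0.0382), both higher in ERbeta, where 9.54% of all genes were. Only UFM1 was higher without overlap between groups (10.2% of all genes), and no member was lower without overlap (8.48% of all genes). In edgeR's test 0 of 7 members and 0% of all genes passed the adjusted threshold, with 2018 genes at an unadjusted p under 0.05; DESeq2's test called 71 genes and limma-voom 1, no member among them. Without EV_Ctrl 2, edgeR called 4 of the 7 higher, UFM1, UFL1, UFSP2 and ODR4, where it called 13.5% of all genes higher. Leaving out any other single library gave 0 calls.

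The split within the pathway ran along base composition. The 4 genes with the largest fold changes had the transcripts poorest in G and C, with 34.9% in UFM1, 35.7% in UFL1, 37.0% in ODR4 and 40.8% in UFSP2, against 47.8% in UFC1, 54.1% in CDK5RAP3 and 59.9% in DDRGK1. The same order held over the transcriptome. Among all tested genes ranked by GC content and cut into 10 equal bins, the median log2 fold change fell from 0.53 in the bin poorest in GC, which holds UFM1, UFL1 and ODR4, to 0.30 in the next, which holds UFSP2, and to -0.19 in the richest. UFC1 lies in a bin with a median of -0.02, CDK5RAP3 in 1 at -0.10 and DDRGK1 in 1 at -0.13. All 7 genes were thus above the median of their bin. Without EV_Ctrl 2 the medians of the poorest and the next bin were 0.82 and 0.45. Bins of transcript length gave medians between -0.04 and 0.06 only.

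A shift in the same direction separated EV_Ctrl 2, labelled as empty vector, from the other controls. Its cause was not tested. In EV_Ctrl 2 minus the mean of EV_Ctrl 1 and 3, UFL1 was at 1.5 on the log2 scale, ODR4 at 1.32, UFSP2 at 1.00, UFM1 at 0.80 and UFC1 at 0.37, with DDRGK1 at 0.07 and CDK5RAP3 at 0.05. The median of the GC-poorest bin in that difference was 0.65. Set against EV_Ctrl 2 alone, the mean of the ERbeta libraries differed by 0.23 for UFM1, 0.12 for UFSP2, 0.07 for UFL1, 0.06 for ODR4 and 0.03 for UFC1, and by -0.06 for DDRGK1 and -0.09 for CDK5RAP3. For comparison HSPA5, the ER chaperone BiP, differed by 0.71 from EV_Ctrl 2 and by 0.77 from EV_Ctrl 1 and 3. HERPUD1, of the ER degradation machinery, differed by 1.32 and 1.03.

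**Figure D2:**
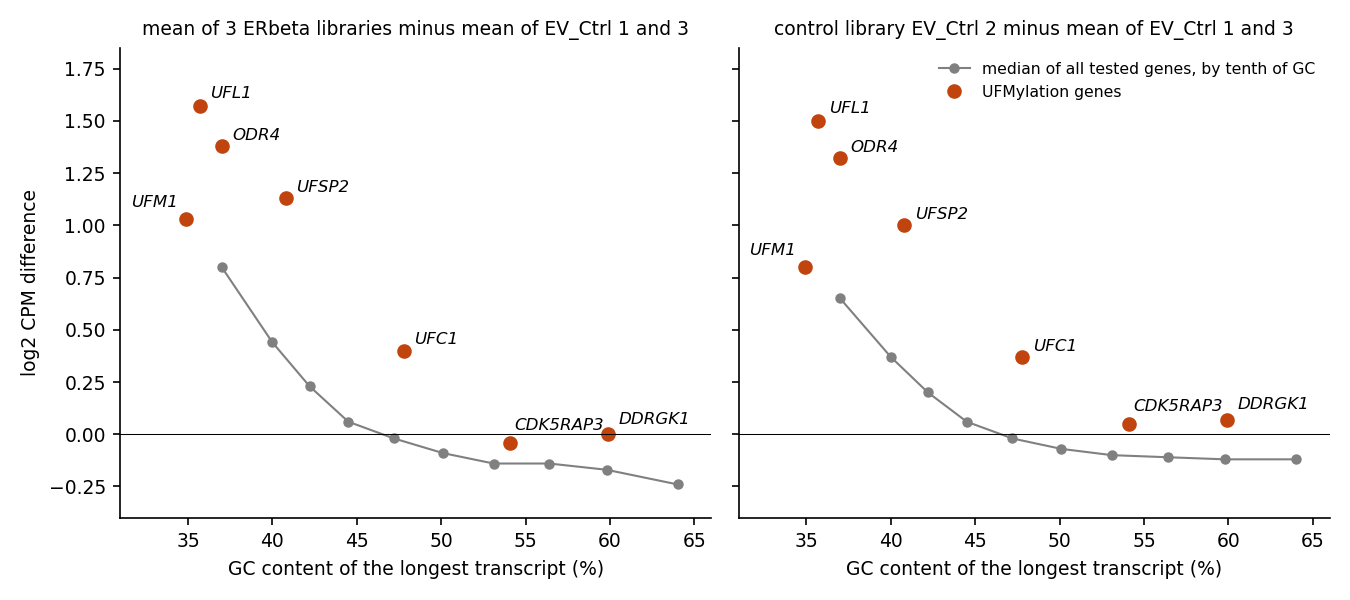
Difference in log2 CPM (y axis) against the GC content of the longest transcript in percent (x axis), for the mean of the ERbeta libraries (left) and for control library EV_Ctrl 2 (right), each minus the mean of EV_Ctrl 1 and 3; orange points are the UFMylation genes and grey points the medians of 10 bins of all tested genes at their median GC content. UFL1, ODR4, UFSP2 and UFM1 are high in both panels, and the grey medians fall with GC content in both.

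When a trend with GC content was fitted in each library and removed, the order of the members changed. With all 6 libraries UFSP2 was at 0.41 ± 0.17 (log2 fold change ± SE), UFL1 at 0.34 ± 0.20, ODR4 at 0.30 ± 0.18, UFC1 at 0.26 ± 0.12, DDRGK1 at 0.10 ± 0.10, UFM1 at 0.08 ± 0.09 and CDK5RAP3 at 0.03 ± 0.10. All 7 were positive and none passed edgeR's test, with adjusted p-values from 0.456 to 0.929. UFM1 thus lost most of its difference, while UFC1 kept its value. With GC correction and without EV_Ctrl 2, 4 of the 7 were called higher in edgeR's test, where 5.96% of all genes were. These were UFL1 at 0.68 ± 0.12 (adjusted p 0.00459), UFSP2 at 0.69 ± 0.13 (0.00603), ODR4 at 0.59 ± 0.14 (0.0194) and UFC1 at 0.41 ± 0.10 (0.0252). UFM1 was not called in that fit, at 0.10 ± 0.11 (0.635).

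**Figure D3:**
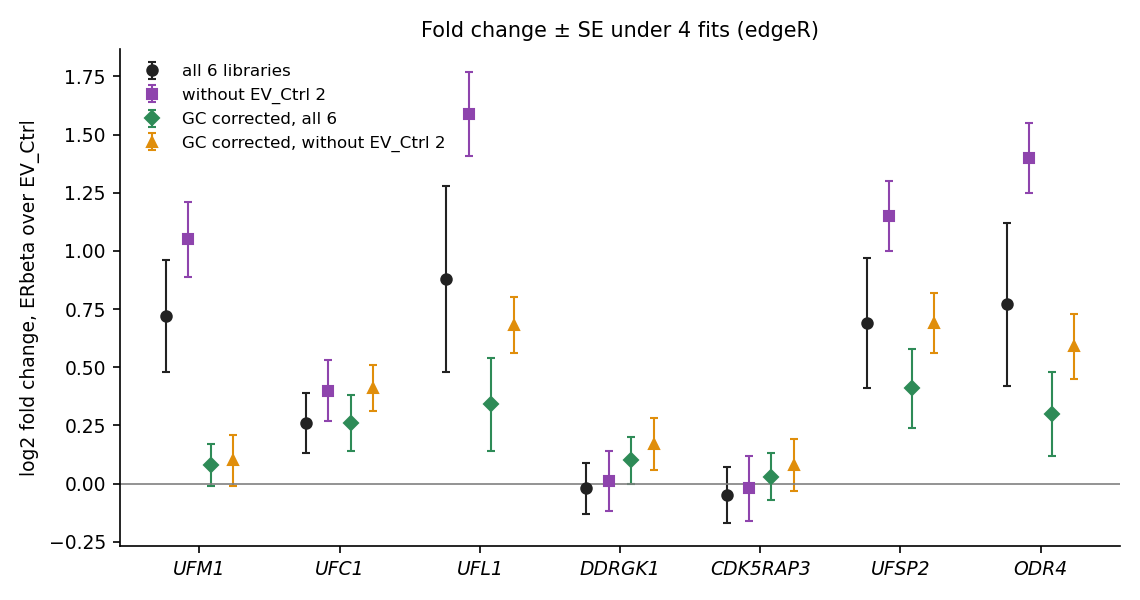
Log2 fold change of ERbeta over EV_Ctrl (y axis) with its SE for each UFMylation gene in edgeR's fit to all 6 libraries, to 5 libraries without EV_Ctrl 2, and to both sets after GC correction. UFM1 goes from 0.72 to 0.08 with GC correction, UFL1 spans 0.34 to 1.59, and DDRGK1 and CDK5RAP3 stay between -0.05 and 0.17.

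Per exon length the pathway's RNAs were unequal in level. In EV_Ctrl, DDRGK1 was at 212 ± 8.76 TPM, UFC1 at 150 ± 17.3 and CDK5RAP3 at 92.1 ± 4.61 (SD, n = 3), with no overlap between these neighbours on this length. UFL1 at 38.9 ± 23.9, UFM1 at 29.2 ± 8.78, ODR4 at 27.3 ± 14.7 and UFSP2 at 26.7 ± 10.5 TPM overlapped in range. Within each control library, though, UFL1 was above ODR4 and UFSP2. In ERbeta the order was DDRGK1 at 199 ± 9.50, UFC1 at 172 ± 10.7, CDK5RAP3 at 84.7 ± 8.36 and UFL1 at 70.4 ± 15.5 TPM, followed by UFM1 at 46.7 ± 9.02, ODR4 at 46.0 ± 4.25 and UFSP2 at 42.4 ± 4.53. CDK5RAP3 and UFL1 overlapped there, as did the last 3. The order at the top depended on the length used. These lengths were those of all annotated exons, which exceeded the longest transcript 2.20 times for CDK5RAP3, 2.04 times for UFC1 and 1.40 times for DDRGK1 and UFM1. Per longest transcript, an alternative chosen after seeing the data, UFC1 was at 225 ± 24.7 and DDRGK1 at 219 ± 8.30 TPM in EV_Ctrl (SD, n = 3), with overlap. In ERbeta UFC1 was then at 257 ± 14.5 and DDRGK1 at 205 ± 10.2 TPM, with UFC1 above DDRGK1 in all 3 libraries. CDK5RAP3, at 137 ± 14.3 TPM in ERbeta, no longer overlapped UFL1 at 55.5 ± 11.8. The ratio of anchor to protease, ODR4 to UFSP2, was 1.20, 1.02 and 1.05 in ERbeta and 0.973, 1.14 and 0.853 in EV_Ctrl 1, 2 and 3. EV_Ctrl 1 and 3 lay under all ERbeta libraries and EV_Ctrl 2 inside their range.

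Genes at the same loci were read for shared counts, since the strand setting of the counting is not given in the sources used here. ANKRD37 overlaps 909 exonic bases of UFSP2 on the opposite strand and held 7 to 36 reads per library, at most 9.87% of the reads of UFSP2. Any reads in shared bases that were counted for neither gene would not show in such values. The antisense RNA UFL1-AS1 overlaps UFL1 by 29 bases and held 0 to 4 reads. Unnamed overlapping genes at UFC1 and CDK5RAP3 held at most 16 and 2 reads. TPR, a nuclear pore protein whose start lies 145 bases from that of ODR4 on the opposite strand, had 5777, 5717 and 4911 reads in ERbeta, 372 and 530 in EV_Ctrl 1 and 3, and 11860 in EV_Ctrl 2. Its log2 fold change was 1.03 ± 0.80 (SE; edgeR adjusted p 0.572). GC correction left it at 0.87, and dropping EV_Ctrl 2 raised it to 2.95. TPR thus had the control pattern of ODR4 in a wider form; it was chosen after its values were seen.

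Promoters were read for motifs because UFM1, UFL1, UFSP2 and ODR4 had similar profiles over the libraries. RefSeq (GRCh38.p14) held 6 starts for 5 members, UFM1, UFL1, CDK5RAP3 (with 2 starts), UFSP2 and ODR4, and the 250 bases before each were searched on both strands. Shown are those of UFM1, UFSP2 and UFL1 and, as a gene without the shift, CDK5RAP3 (the start that opens a GENCODE transcript). Capitals mark a CCAAT box (CCAAT, the NF-Y motif, or ATTGG on the other strand), a CRE (TGACGTCA, the CREB and ATF motif), or ACGTGG, the last 6 letters of the UPRE core.
UFM1, chr13:38349601-38349850, plus strand: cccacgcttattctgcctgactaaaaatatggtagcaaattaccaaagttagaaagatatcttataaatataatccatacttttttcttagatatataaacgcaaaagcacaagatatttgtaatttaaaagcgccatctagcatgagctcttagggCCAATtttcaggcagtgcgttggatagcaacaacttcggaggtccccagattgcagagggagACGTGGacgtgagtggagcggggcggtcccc
UFSP2, chr4:185425965-185426214, minus strand: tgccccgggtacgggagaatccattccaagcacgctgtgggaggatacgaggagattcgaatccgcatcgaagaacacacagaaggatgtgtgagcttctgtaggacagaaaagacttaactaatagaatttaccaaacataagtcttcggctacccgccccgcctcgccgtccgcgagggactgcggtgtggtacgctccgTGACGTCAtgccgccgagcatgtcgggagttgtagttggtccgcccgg
UFL1, chr6:96521556-96521805, plus strand: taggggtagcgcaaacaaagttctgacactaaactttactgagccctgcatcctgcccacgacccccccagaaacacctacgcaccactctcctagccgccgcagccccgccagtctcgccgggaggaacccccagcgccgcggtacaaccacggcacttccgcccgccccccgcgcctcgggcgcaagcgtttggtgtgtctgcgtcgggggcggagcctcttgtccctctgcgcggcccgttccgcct
CDK5RAP3, chr17:47970863-47971112, plus strand: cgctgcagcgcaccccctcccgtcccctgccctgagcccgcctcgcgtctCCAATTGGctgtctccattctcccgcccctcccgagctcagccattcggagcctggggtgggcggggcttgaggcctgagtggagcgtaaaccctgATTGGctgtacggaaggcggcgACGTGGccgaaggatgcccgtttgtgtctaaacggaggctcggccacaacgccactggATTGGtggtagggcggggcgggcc
UFM1 held a CCAAT box at -93 and ACGTGG at -31 from the start. UFSP2 held a CRE at -48, which 1.65% of 35116 promoter windows of this length held. CDK5RAP3 held CCAAT matches at -200, -197 (overlapping the first), -104 and -24 and ACGTGG at -82. Across the 6 starts 2 held CCAAT and 2 held ACGTGG, against 32% and 8.37% of all windows; ACGTGG was added after the sequences had been read. None held the UPRE core TGACGTGG, bound by XBP1 and ATF6 (0.612% of all windows), or the C/EBP-ATF element TTGCATCA, bound by ATF4 (0.772%). Nor did any hold the composite ER stress elements ERSE (0.074%) and ERSE-II (0.0513%). The members with and without the shift were not set apart by these letters: CCAAT and ACGTGG occurred in both UFM1 and CDK5RAP3, and UFL1 and ODR4 held none of the motifs.

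Proteins that carry or read UFM1 were measured next to the pathway. Of 7 genes (RPL26, RPN1, CYB5R3, TRIP4, MRE11, SYVN1 and SAYSD1), 5 were positive, at a median of 0.09 (-0.01 when scaled by library size only), and 0 passed edgeR's adjusted test. RPL26, the main ribosomal target, was at 370, 421 and 414 CPM in ERbeta and 355, 400 and 283 CPM in EV_Ctrl, a log2 fold change of 0.22 ± 0.14 with overlap. The DNA repair nuclease MRE11 was at 0.38 ± 0.20 and TRIP4, a subunit of the ASC-1 complex that splits collided ribosomes, at 0.18 ± 0.16. After GC correction MRE11 was at -0.09. Without EV_Ctrl 2 edgeR called 1 of the 7 higher, MRE11 at 0.60, with a list median of 0.10. In that fit 13.5% of all genes were called higher.

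Factors that rescue stalled ribosomes, the event in which RPL26 is modified, were mixed. Of 17 genes 12 were positive with a median of 0.03 (0.10 after GC correction, -0.06 when scaled by library size only), and 0 passed. Without EV_Ctrl 2 edgeR called 5 of the 17 higher, with a median of 0.03, where it called 13.5% of all genes higher. ABCE1 was higher without overlap. ANKZF1, at -0.11, was lower without overlap and was chosen after its values were seen. ABCE1, the ATPase that recycles ribosomes, was at 131, 130 and 167 CPM in ERbeta and 57.5, 122 and 51.6 CPM in EV_Ctrl, a log2 fold change of 0.88 ± 0.32 (0.46 after GC correction). HBS1L, which acts with Pelota on stalled ribosomes, was at 0.61 ± 0.25 (0.14 after GC correction). For ABCE1 and HBS1L, EV_Ctrl 2 lay far above EV_Ctrl 1 and 3, as it did for UFL1. The same held for 3 further genes of the list, chosen after their values were seen. LTN1, the ligase Listerin that marks nascent chains on split ribosomes, was at 142, 135 and 195 CPM in ERbeta and 43.1, 144 and 46.1 CPM in EV_Ctrl. NEMF, the partner of Listerin, was at 62.9, 59.3 and 69.4 against 17.6, 68.4 and 16.2 CPM. ASCC3, the helicase of the ASC-1 complex, was at 185, 177 and 254 against 91.9, 203 and 94.0 CPM. These 3 genes also had transcripts poor in G and C, at 37.0%, 37.5% and 39.9%.

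ATG8 proteins, to which CDK5RAP3 binds, had a median of 0.04 over 5 tested genes, 3 positive and 2 negative, and 0 passed with EV_Ctrl 2 or without it, where the median was -0.03; MAP1LC3B2 and MAP1LC3C, with 7 and 12 reads in all, were not tested. GABARAPL1 was at 0.11 ± 0.10, MAP1LC3A at -0.20 ± 0.22 and GABARAPL2 at -0.05 ± 0.12.

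Other ubiquitin-like systems were compared as conjugation machines of similar build. For NEDD8, which activates cullin ligases, 11 of 14 genes were positive with a median of 0.21 and 0 passed; the E1 subunit UBA3 was at 0.50 ± 0.21, the deneddylase COPS5 at 0.35 ± 0.15 and DCUN1D1 at 0.81 ± 0.35. After GC correction these were at 0.10, -0.07 and 0.16. For SUMO 11 of 17 were positive with a median of 0.19 and 0 passed; the proteases SENP6 and SENP7 were at 0.83 ± 0.27 and 0.93 ± 0.35 and the E1 subunit UBA2 at 0.46 ± 0.16, against 0.28, 0.37 and 0.35 after GC correction. For the ATG8 and ATG12 conjugation enzymes 7 of 10 were positive with a median of 0.13 and 0 passed, with ATG12 at 0.58 ± 0.19, ATG4C at 0.76 ± 0.27 and ATG5 at 0.64 ± 0.30, against 0.06, 0.16 and 0.24 after GC correction. After GC correction the medians were -0.03 for NEDD8, 0.08 for SUMO and -0.01 for ATG8 and ATG12 conjugation, against 0.26 for the UFMylation genes and -0.03 for all tested genes. These lists differ in size and were not tested against each other. Without EV_Ctrl 2, edgeR called 6 of 14 NEDD8 genes, 6 of 17 SUMO genes and 3 of 10 ATG8 and ATG12 conjugation genes higher. Their medians were 0.30, 0.20 and 0.26. Beside them 4 of 7 UFMylation genes and 13.5% of all genes were called higher. With GC correction and without EV_Ctrl 2, edgeR called 0 of 14 NEDD8 genes and 0 of 10 ATG8 and ATG12 conjugation genes higher. It called 4 of 17 SUMO genes higher (with 1 lower), 4 of 17 ribosome rescue genes and 8 of 12 ER stress genes (described next). Beside them were the 4 of 7 UFMylation genes and 5.96% of all genes.

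Of 12 ER stress genes set as a reference, 12 were positive with a median of 0.53 and 0 passed edgeR's adjusted test. Of these 11 were higher without overlap between groups, as were 10.2% of all genes. Their median was 0.46 after GC correction, with 11 of the 12 positive. Without EV_Ctrl 2 edgeR called 8 of the 12 higher, with a median of 0.55, where it called 13.5% of all genes higher. HSPA5 was at 870, 877 and 888 CPM in ERbeta and 530, 536 and 501 CPM in EV_Ctrl, and HERPUD1 at 83.1, 88.0 and 57.1 against 38.2, 29.8 and 34.7 CPM. For both genes EV_Ctrl 2 lay with the other controls, unlike its place for UFM1, UFL1, UFSP2 and ODR4. The transcripts of HSPA5 and HERPUD1 held 46% and 47.9% G and C, against 34.9% to 40.8% for those members. Genes of like composition could still differ. UFC1, at 47.8%, was at 0.37 in EV_Ctrl 2 minus the mean of EV_Ctrl 1 and 3, and HERPUD1 at -0.29. Whether base composition accounts for the contrast was not tested.

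**Figure D4:**
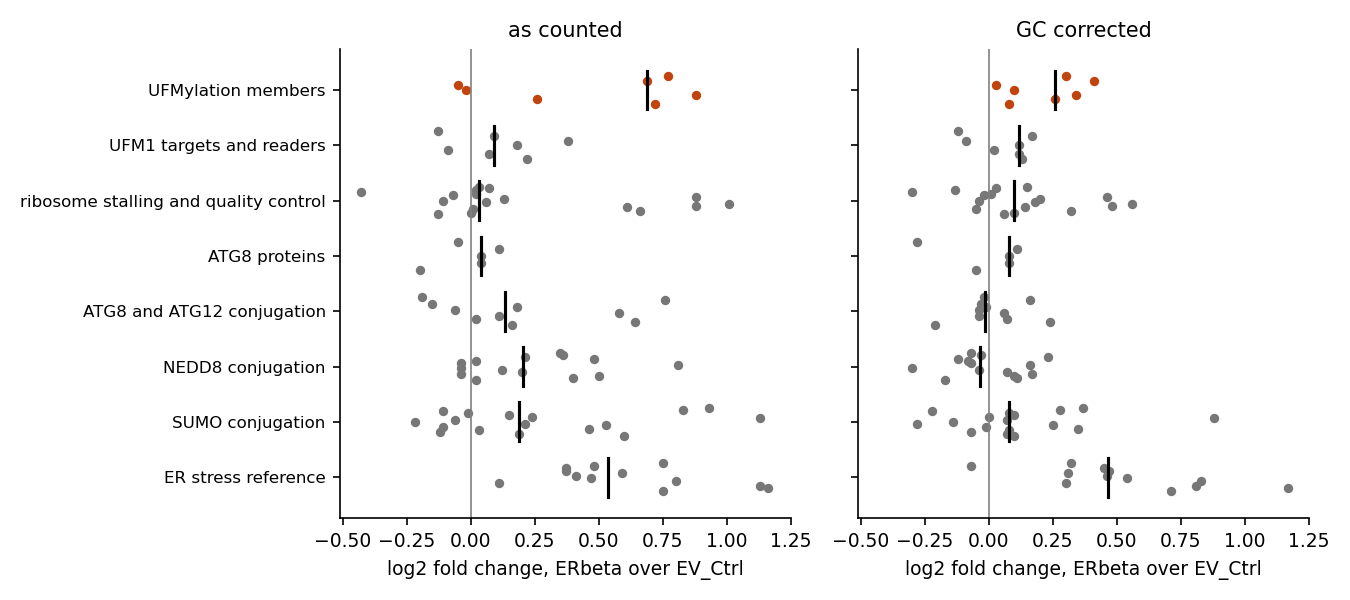
Log2 fold change of ERbeta over EV_Ctrl (x axis) for each tested gene of the UFMylation list (orange) and the 7 other lists (grey), as counted (left) and after GC correction (right); black bars are list medians. The UFMylation median goes from 0.69 to 0.26 and the ER stress median from 0.53 to 0.46.

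Likeness of profiles was measured as the root mean square difference of centred log2 CPM over the 6 libraries. Among members, DDRGK1 and CDK5RAP3 were closest to each other at 0.09, followed by the pairs UFM1 and UFSP2 and UFL1 and ODR4 at 0.14 each, and UFSP2 and ODR4 at 0.16. The widest gap was that of UFL1 and CDK5RAP3, at 0.78. Of genes averaging 4 or more in log2 CPM, those nearest to the mean profile of the 7 members were TOM1L1 and SNW1 at 0.03 and HMGB1, WDR75 and RPF2 at 0.04. In that order their transcripts held 45.2%, 44.9%, 37.9%, 37.7% and 40.4% G and C. After GC correction their log2 fold changes were 0.41, 0.43, 0.00, -0.06 and 0.24. Nearest to UFM1 were PPP4R3B at 0.02, PPP1R12A at 0.03 and MYSM1 at 0.04. As a description, PPP4R3B was at 123, 112 and 153 CPM in ERbeta and 60.8, 109 and 62.3 CPM in EV_Ctrl, with EV_Ctrl 2 again near the ERbeta libraries.

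The authors' deposited table gives the same order of signs, with log2 fold changes of 0.51 for UFM1, 0.49 for UFSP2, 0.40 for ODR4, 0.38 for UFL1, 0.22 for UFC1, -0.02 for DDRGK1 and -0.05 for CDK5RAP3. The authors' deposited table gives 0 of the 7 an adjusted p under 0.05, and the smallest were 0.057 for UFM1 and 0.0628 for UFSP2. The authors' deposited table lists 421 genes under 0.05 among 11150 with an adjusted p, 373 of them higher.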

How the data were processed

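TruSeq Stranded mRNA libraries (per the labels' protocols) of 3 ERbeta and 3 EV_Ctrl samples were analysed, with groups taken from the sample titles. The submitters' processing notes name TopHat2, featureCounts, DESeq2 and hg38; no source used here gives their versions, the annotation or the strand setting. The authors deposited raw read counts per gene. Per the file headers, the authors' deposited comparison gives a mean signal (mean normalised count), log2 fold changes, p-values and, as scores, Wald statistics and standard errors; it was copied, not tested.

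Counts were filtered with filterByExpr (minimum count 10, total 15), scaled by TMM and tested with edgeR 4.0.16 (quasi-likelihood, group only, two-sided, Benjamini-Hochberg over 16243 genes) in R 4.3.3. CPM are per 1000000 counts. Symbols were matched by Ensembl identifier; coordinates, exon lengths and GC content came from GENCODE 29 (GRCh38), promoters from RefSeq. GC correction took as offset each library's trend of log2 CPM over GC content (loess, span 0.5), for 16091 genes. Members, lists and alternatives were chosen with earlier results of these data known. Named genes were the 7 members, up to 3 genes of each other list by p, HSPA5, HERPUD1, nearest profiles and overlapping genes; others are marked, and 1 gene that the rule named is not reported here. Library totals of 6833442 to 27101644 set the precision; no libraries of a group agreed within counting noise (chi-square per degree of freedom at least 4.63). Alternatives included limma 3.58.1 and DESeq2 1.42.0. The steps were tested on simulated data with less scatter than these libraries and no control that stood apart. That test does not show how many differences would be found at the scatter seen here.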

Additional observations from a re-analysis of the deposited data

How the results depend on the processing

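The member count and median kept their direction in all 19 alternative fits: 5 to 7 of 7 positive, with medians from 0.06 without both EV_Ctrl 1 and 3 (the lone control is then assumed to vary like ERbeta) to 1.05 without EV_Ctrl 2; leaving out 1 library gave 0.49 to 1.05. UFM1 ranged from 0.08 with GC correction to 1.05. DDRGK1 turned positive with GC correction (0.10, also with the replicate block; 0.17 without EV_Ctrl 2 as well) and without either ERbeta 1, ERbeta 3, EV_Ctrl 1 or EV_Ctrl 2 (-0.08 to 0.02 over all 6 left out in turn). CDK5RAP3 turned with GC correction (0.03, 0.03 with the block, 0.08 without EV_Ctrl 2) and without ERbeta 3 (-0.11 to 0.05 over the 6).

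Over all genes, calls were 51 higher without a filter, 70 higher and 1 lower in DESeq2's test, 1 higher in limma-voom, 0 to 2198 higher and 0 to 126 lower when 1 library was left out, and 960 higher and 665 lower with GC correction and without EV_Ctrl 2. At an unadjusted p under 0.05 edgeR's fit without a filter held 3243 genes.

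Among the other lists, library size only moved the medians of ATG8 proteins to -0.06 and of ATG8 and ATG12 conjugation to 0.04. Thinned counts moved the latter to 0.20, GC correction to -0.01 (-0.01 with the block, 0.01 without EV_Ctrl 2) and leaving out EV_Ctrl 1 and 3 to -0.04. GC correction moved NEDD8 to -0.03 (-0.02 with the block) and SUMO to 0.08 (0.08 with the block), and SUMO was at 0.04 without EV_Ctrl 1 and 3. Leaving out 1 library gave -0.10 to 0.12 for ATG8 proteins, 0.03 to 0.26 for ATG8 and ATG12 conjugation, and 0.07 to 0.22 for SUMO. Per longest transcript in place of all exons, an alternative chosen after seeing the data, mean TPM moved to 225 in EV_Ctrl and 257 in ERbeta for UFC1, to 149 and 137 for CDK5RAP3, and in ERbeta to 36.8 for UFSP2 and 36.3 for ODR4, as the lengths differ. The cause was not tested for the list medians.

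The labels give replicate numbers 1 to 3 in both groups. Deviations of same-numbered libraries correlated at 0.233, -0.136 and -0.152, so the numbers were not taken to pair them. With the replicate block the member median was 0.76 and 0 genes were called, as without it (1814 at an unadjusted p under 0.05); ERbeta 1 correlated best with EV_Ctrl 3 and not with its own number.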
